A study of Mus musculus with 9 samples.

Results

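Matrix metalloproteinases, their tissue inhibitors (TIMPs) and a pair of matricellular CCN proteins were followed in the nasal mucosa of inbred BALB/c mice. The 10 genes were Timp1, Timp2, Timp3, Mmp2, Mmp3, Mmp9, Mmp12, Mmp14, Ccn1 (formerly Cyr61) and Ccn2 (formerly Ctgf), out of 19938 genes with a probe set of their own. Each was found by its symbol in the platform annotation and had 1 single-gene probe set, so all 10 were measured and none was removed by a filter. The 9 arrays, 1 per sample, fell into 3 groups of 3. Mice of the 4-week group underwent sensitisation and challenge with the egg allergen ovalbumin (OVA) and were sacrificed 4 weeks after the final dose. The OVA mice underwent the same regimen and were sacrificed 2 hours after it. For the control mice, saline replaced ovalbumin in both steps. All samples are labelled male and 6 to 8 weeks of age. Values are log2 expression, so that a difference of 1 is a doubling, and differences are called when the limma p adjusted over all tested probe sets is under 0.05.

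Metalloproteinases are zinc enzymes that are secreted or membrane-bound as inactive precursors and cut collagens, elastin, basement membrane and many signalling proteins. TIMPs bind their active site and block them, and are themselves regulated separately: Timp1 is readily induced by inflammatory cytokines, whereas Timp2 is made more evenly. CCN1 and CCN2 are secreted proteins that bind integrins and matrix, and their genes respond to growth factors, mechanical load and TGF-beta. In the airway these genes are studied as a readout of the remodelling that accompanies allergic inflammation.

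Sex-linked transcripts went against the label of the control samples. Xist, the RNA of the inactive X chromosome in females, averaged 4.33 ± 0.08 in the 4-week arrays, 4.29 ± 0.07 in the OVA arrays and 10.81 ± 0.26 in the arrays labelled control (SD, n = 3 each), and the Y-linked genes Eif2s3y, Uty and Kdm5d were 31.0-fold, 16.7-fold and 5.02-fold higher in the other 6 arrays than in those labelled control. Sex pattern and treatment therefore cannot be told apart in a difference from the arrays labelled control, and only the 4-week and OVA groups share a pattern. The 10 markers of olfactory and respiratory nasal mucosa had list means of 10.71 to 10.91 in 4-week, 10.82 to 10.93 in OVA and 10.58 to 10.84 in arrays labelled control, where the array medians lay between 6.38 and 6.45. Whether each array is a separate animal is not stated, so the p-values refer to the spread between these arrays, part of which may be technical. In tissue RNA, fewer cells of a type and less RNA per cell cannot be told apart.

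Of the 4 genes among the 10 that passed the test in some comparison, Timp1, Timp3 and Ccn1 have a RefSeq promoter window (assembly GRCm38.p6, 250 bases before to 50 after the start), and these windows are shown because their transcripts had 3 different group patterns. The Timp1 window is chrX:20869916-20870215 on the plus strand, that of Timp3 chr10:86300162-86300461 on the plus strand and that of Ccn1 chr3:145649936-145650235 on the minus strand. Capitals mark a match to any of 5 motifs searched on both strands.
Timp1: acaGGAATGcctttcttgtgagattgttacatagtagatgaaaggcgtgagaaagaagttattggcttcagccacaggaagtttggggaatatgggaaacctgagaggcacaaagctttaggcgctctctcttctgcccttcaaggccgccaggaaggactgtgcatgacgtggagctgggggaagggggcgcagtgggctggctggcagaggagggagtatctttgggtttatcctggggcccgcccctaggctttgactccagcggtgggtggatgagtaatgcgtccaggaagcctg
Timp3: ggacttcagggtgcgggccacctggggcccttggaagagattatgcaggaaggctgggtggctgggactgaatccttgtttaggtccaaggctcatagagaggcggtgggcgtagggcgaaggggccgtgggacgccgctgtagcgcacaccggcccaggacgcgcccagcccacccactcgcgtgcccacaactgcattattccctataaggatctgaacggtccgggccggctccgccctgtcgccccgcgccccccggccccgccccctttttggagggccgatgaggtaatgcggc
Ccn1: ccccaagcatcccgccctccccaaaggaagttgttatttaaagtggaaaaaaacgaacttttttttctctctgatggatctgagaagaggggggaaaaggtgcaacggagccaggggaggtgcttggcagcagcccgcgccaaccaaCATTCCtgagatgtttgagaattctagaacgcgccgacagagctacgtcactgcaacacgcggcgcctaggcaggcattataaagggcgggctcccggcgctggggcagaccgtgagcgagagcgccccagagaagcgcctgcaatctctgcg
The motifs were AP-1 (TGANTCA), STAT (TTCNNNGAA), CRE (TGACGTCA), TEAD (GGAATG) and the CArG box of serum response factor. Only exact matches were counted, so variant sites with a differing letter are not marked. The only matches in these 3 windows were GGAATG letters, beginning 247 bases before the start of Timp1 and, on the opposite strand, 103 bases before the start of Ccn1. The TEAD letters occur in 14.7% of 32851 RefSeq windows of this length, so a match is common. Windows were found for 7 of the 10 genes. Among the others, Mmp3 and the second window of Mmp12 held the AP-1 letters at 46 and 44 bases before the start, a match found in 7.81% of windows. Timp2, Mmp14 and the first Mmp12 window held none of the 5.

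Across the 10 genes the test found changes in TIMPs and CCN genes and in none of the metalloproteinases. In OVA against the arrays labelled control, Timp1, Timp3 and Ccn2 rose. In 4-week against OVA, Timp1 fell and Ccn1 rose. In 4-week against the arrays labelled control, Timp3, Ccn1 and Ccn2 rose. In OVA minus control these were 3 of 10 genes, where 1.3% of 23410 probe sets were called (0.782% higher). In 4-week minus OVA they were 2 of 10, where 6.33% were called (3.81% higher and 2.51% lower), and in 4-week minus control 3 of 10, where 14.4% were called (7.92% higher). The groups did not overlap for 4 of 10 genes in OVA minus control, beside 21.5% of all probe sets, for 2 of 10 in 4-week minus OVA, beside 28.1%, and for 3 of 10 in 4-week minus control, beside 35.0%. The median log2 change of the 10 was 0.037, −0.0066 and 0.135 in these 3 comparisons, beside −0.017, −0.024 and −0.041 over all probe sets. The comparisons share arrays, so their values stand side by side and are not independent of each other.

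**Figure D1:**
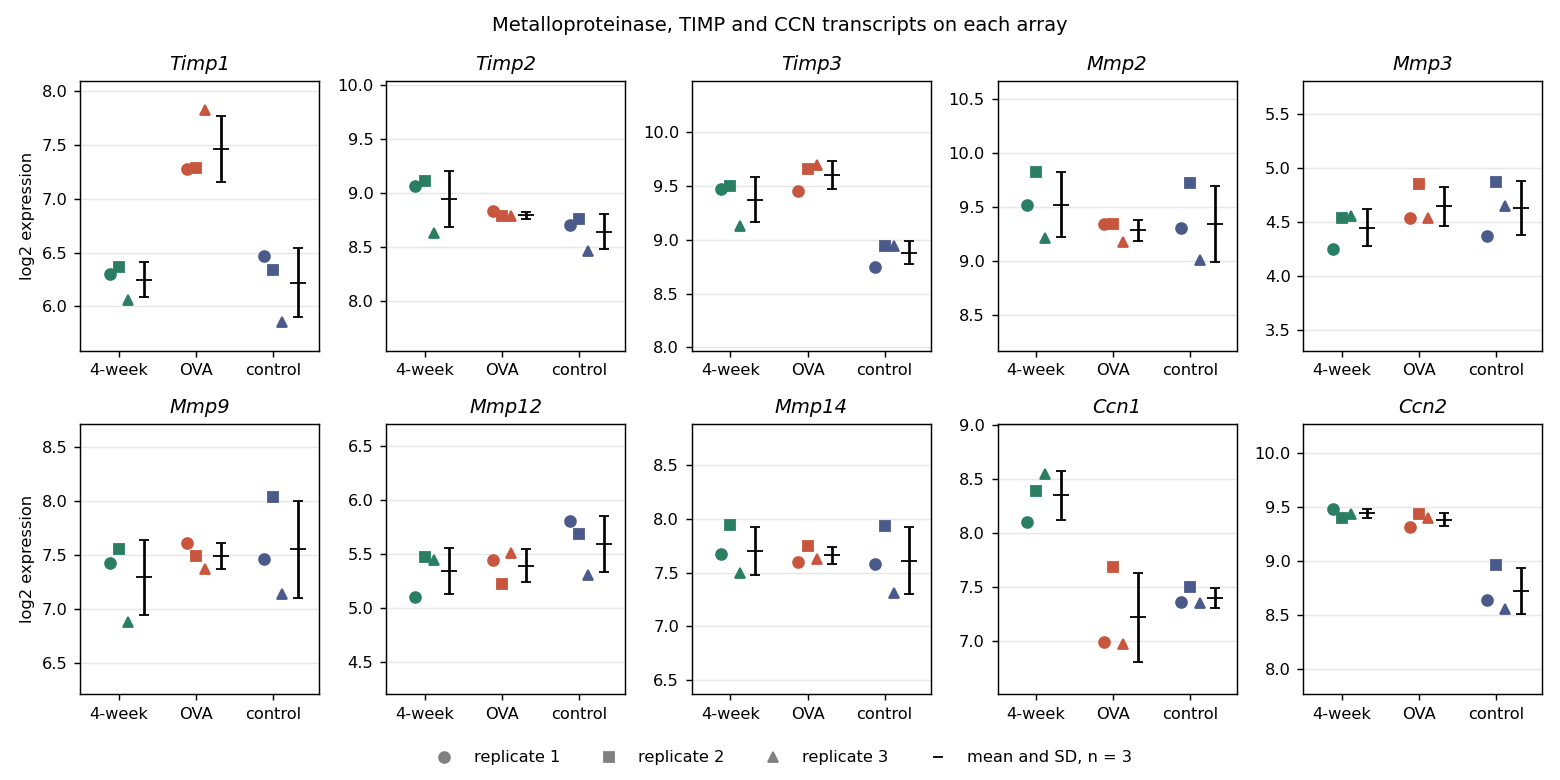
Log2 expression of the 10 genes on each array, in panels of equal height (2.5 log2 units), with the 4-week group left, OVA in the middle and the arrays labelled control right. Marker shapes are replicates and the bars are mean and SD (n = 3). Timp1 stands apart in OVA (7.27 to 7.82), Ccn1 in the 4-week group (8.10 to 8.55) and Ccn2 is low in the arrays labelled control (8.55 to 8.96), while the 5 metalloproteinases overlap between all groups.

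Timp1, the inhibitor most readily induced in inflammation, was highest 2 hours after challenge. It stood at 6.30, 6.37 and 6.06 in the 4-week arrays, 7.27, 7.28 and 7.82 in the OVA arrays and 6.47, 6.34 and 5.86 in the arrays labelled control. All 3 OVA arrays lay above the other 6, and the 4-week arrays lay within the range of those labelled control. Timp1 was 2.35-fold higher in OVA than in the arrays labelled control (log2 change 1.24, SE 0.19, adjusted p = 0.022) and 2.32-fold lower in 4-week than in OVA (log2 change −1.21, SE 0.19, adjusted p = 0.0105). Between 4-week and the arrays labelled control the log2 change was 0.02, with a 95% interval of −0.41 to 0.46. Timp1 lies on the X chromosome, and the fall in the 4-week group was measured between groups with the same sex pattern.

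The fall of Timp1 passed in all 9 fits that each left out 1 array. Its rise against the arrays labelled control did not pass without control replicate 2 (adjusted p = 0.084), control replicate 3 (0.0526), OVA replicate 1 (0.0602) or OVA replicate 3 (0.0584), with log2 changes between 1.05 and 1.36 over the 9 fits. Timp1 lies within the span of the neuronal gene Syn1 in the RefSeq table. The Syn1 probe set averaged 6.75 in 4-week, 7.17 in OVA and 7.18 in the arrays labelled control and passed in no comparison. Its 4-week arrays lay below OVA (−0.42, adjusted p = 0.173) and below the arrays labelled control (−0.43, adjusted p = 0.114) without overlap. In these comparisons 28.1% and 35.0% of all probe sets did not overlap.

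Genes that act upstream of Timp1 in other cell systems were read from a list of 10 cytokines, receptors and transducers. The list was chosen with earlier results of these data known, so its counts are descriptive. In OVA minus control 3 of the 10 rose and none fell, where 1.3% of all probe sets were called, namely Osmr, the oncostatin M receptor (log2 change 1.58, adjusted p = 0.00171), Il1b, a cytokine of early inflammation (2.19, adjusted p = 0.00764), and Stat3, the transcription factor of the IL-6 family (0.45, adjusted p = 0.0292). In 4-week minus OVA, Osmr (−1.05, adjusted p = 0.00515) and Stat3 (−0.32, adjusted p = 0.0401) fell, 2 of 10 beside 6.33% of all probe sets. In 4-week minus control, where Timp1 had a change of 0.02, 3 of the 10 were higher, beside 14.4% called among all probe sets. These were Il1b (1.55, adjusted p = 0.00624), Osmr (0.53, adjusted p = 0.0318) and Il6st, the shared signalling receptor of the IL-6 family (0.36, adjusted p = 0.0181). The rise of Osmr in OVA, its fall in 4-week against OVA and both rises of Il1b held in all 9 fits that left out 1 array. The rise of Osmr in 4-week minus control held in 4 and that of Il6st in 6, while Stat3 kept its rise in 3 and its fall in 1. Il6 stood at 2.70, 2.94 and 3.01 in 4-week arrays, 3.01, 5.12 and 4.91 in OVA arrays and 2.94, 3.00 and 2.99 in the arrays labelled control, and did not pass (adjusted p = 0.186 for OVA minus control). Osm itself had a log2 change of 0.30 in OVA minus control (adjusted p = 0.13).

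Markers of cells that could carry Timp1 were read on the same arrays. The mean over 9 macrophage markers was 6.03 to 6.18 in 4-week arrays, 6.80, 6.11 and 7.11 on OVA replicates 1, 2 and 3, and 5.81 to 6.32 in the arrays labelled control. On the same OVA replicates Timp1 was 7.27, 7.28 and 7.82. None of the 9 macrophage markers passed for OVA against the arrays labelled control (5 at an unadjusted p under 0.05) or for 4-week against OVA (4). None of the 10 neutrophil markers passed there either (5 and 1). No share of all probe sets stands beside these unadjusted counts, so they show no excess or lack. The macrophage markers nevertheless had a median log2 change of 0.578 between OVA and the arrays labelled control, where all probe sets had −0.017. From OVA to 4-week their median was −0.528, beside −0.024. The neutrophil medians were −0.786 and 0.032. The neutrophil list mean was 6.92 to 8.03 in 4-week, 7.48 to 7.95 in OVA and 7.46 to 8.49 in the arrays labelled control. Its members ran both ways in OVA minus control. Cxcr2, a chemokine receptor (0.81, adjusted p = 0.137), and Ltf, lactoferrin (0.67, adjusted p = 0.267), lay above the arrays labelled control without overlap. Ly6g, Mpo, Elane and Camp lay below them without overlap (−1.58 to −0.57). These were 2 above and 4 below of 10, where 21.5% of all probe sets did not overlap. The mean of Ltf over the 9 arrays, 12.21, exceeded that of 99.7% of the tested probe sets. In 4-week minus control, the granule enzymes Mpo (−1.37, adjusted p = 0.0278) and Elane (−1.14, adjusted p = 0.0238) fell. These were 2 of 10, where 14.4% of all probe sets were called. Each call held in 4 of the 9 fits that left out 1 array. The part of these cells in the Timp1 values was not tested.

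Timp3, a matrix-bound inhibitor that also blocks ADAM and ADAMTS proteases, was higher in both allergen groups than in the arrays labelled control. Its values were 9.47, 9.50 and 9.13 in 4-week arrays, 9.45, 9.65 and 9.69 in OVA arrays and 8.75, 8.94 and 8.94 in the arrays labelled control. The 6 arrays of allergen-exposed mice all lay above the 3 labelled control, and the 4-week and OVA ranges overlapped. It was 1.65-fold higher in OVA (log2 change 0.72, SE 0.12, adjusted p = 0.0241) and 1.41-fold higher in 4-week (0.49, SE 0.12, adjusted p = 0.0251) than in the arrays labelled control. The change of −0.23 between 4-week and OVA did not pass (95% interval −0.49 to 0.03, adjusted p = 0.268).

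Both calls of Timp3 rest on the full set of arrays. The rise in OVA did not pass without any 1 of the 3 OVA arrays or the 3 arrays labelled control (adjusted p from 0.0551 to 0.0866), and the rise in 4-week did not pass without any 1 of the arrays labelled control or without 4-week replicate 1 or 2 (0.0506 to 0.0853).

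Timp2, which inhibits metalloproteinases and, together with Mmp14, takes part in activating the precursor of Mmp2, did not pass in any comparison. It stood at 9.06, 9.11 and 8.63 in 4-week arrays, 8.83, 8.78 and 8.78 in OVA arrays and 8.70, 8.76 and 8.46 in the arrays labelled control. OVA lay above the arrays labelled control without overlap, and the log2 change was 0.15 (adjusted p = 0.6). The change between 4-week and the arrays labelled control was 0.29 (adjusted p = 0.15), and it passed only without 4-week replicate 3 (0.45, adjusted p = 0.0269). By group mean, Timp1 and Timp3 both ran OVA, 4-week and control from high to low, and Timp2 ran 4-week, OVA and control. For Timp1 the 4-week and control arrays did not differ beyond the test, for Timp3 the OVA and 4-week arrays did not, and for Timp2 no neighbouring groups did.

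The 5 metalloproteinases did not pass in any of the 3 comparisons, with log2 changes between −0.26 and 0.24 and adjusted p from 0.274 upward (0 of 5 at an unadjusted p under 0.05, the smallest being 0.129). Their 95% intervals reached from −0.79 to 0.67, so changes of the size of Timp1 lay outside them. Smaller changes did not all lie outside. In 4-week minus control the interval of Mmp2 reached 0.61, which includes a rise as large as the called 0.49 of Timp3. Among these enzymes Mmp2 and Mmp9 are the gelatinases that cut basement membrane collagen, Mmp14 is the membrane-bound activator of Mmp2, Mmp3 is a stromelysin and Mmp12 the elastase of macrophages.

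Mmp9, an enzyme of neutrophils, macrophages and osteoclasts often measured with Timp1 in allergic airways, had 7.42, 7.55 and 6.88 in 4-week arrays, 7.61, 7.49 and 7.37 in OVA arrays and 7.46, 8.04 and 7.14 in the arrays labelled control. All 3 groups overlapped, and the OVA arrays lay inside the range of those labelled control. The change was −0.06 in OVA minus control (95% interval −0.58 to 0.47, adjusted p = 0.929) and −0.20 in 4-week minus OVA (adjusted p = 0.639). Mmp2 had 9.52, 9.82 and 9.21 in 4-week arrays, 9.34, 9.34 and 9.17 in OVA arrays and 9.30, 9.72 and 9.01 in the arrays labelled control. Its groups overlapped in the same way, with a change of −0.06 in OVA minus control (95% interval −0.50 to 0.37) and 0.24 in 4-week minus OVA (−0.20 to 0.67). For Mmp14 the arrays had 7.67, 7.94 and 7.50 in 4-week, 7.60, 7.75 and 7.63 in OVA and 7.58, 7.93 and 7.31 among those labelled control, and the change in OVA minus control was 0.06 (−0.30 to 0.42). The group means of Mmp14 lay within 0.10 of each other.

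Mmp3 and Mmp12 are both on chromosome 9. Their mean signal exceeded that of 16.7% (Mmp3) and 30.6% (Mmp12) of the tested probe sets, and without detection calls their distance from background is unknown. Mmp12 averaged 5.34 ± 0.21 in 4-week, 5.39 ± 0.15 in OVA and 5.59 ± 0.26 in arrays labelled control, and Mmp3 averaged 4.45 ± 0.17 in 4-week, 4.65 ± 0.18 in OVA and 4.63 ± 0.25 in arrays labelled control (SD, n = 3 each). Neither differed beyond the spread of the arrays, with the change nearest to the threshold being −0.25 for Mmp12 in 4-week minus control (95% interval −0.60 to 0.09, adjusted p = 0.274).

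**Figure D2:**
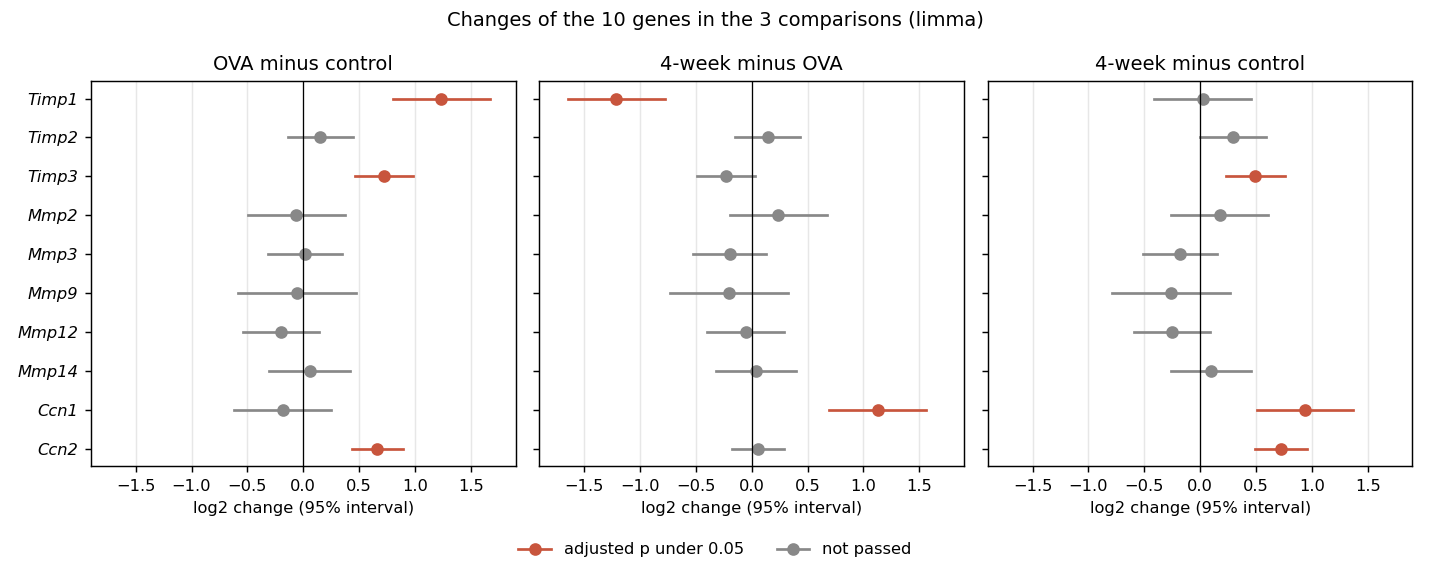
Log2 change with 95% interval (limma) for the 10 genes, with OVA minus control left, 4-week minus OVA in the middle and 4-week minus control right. Red marks an adjusted p under 0.05. The red points are Timp1, Timp3 and Ccn2 on the left, Timp1 below 0 and Ccn1 above 0 in the middle, and Timp3, Ccn1 and Ccn2 on the right, while all intervals of the metalloproteinases cross 0.

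In the 4-week group and among the arrays labelled control, Mmp2, Mmp9 and Mmp14 varied more between arrays than between the group means, and in the same direction. On 4-week replicate 2 and on control replicate 2, Mmp2, Mmp9 and Mmp14 were each the highest of their group, and on 4-week replicate 3 and control replicate 3 each was the lowest. Mmp9, for example, was 0.27 above its group mean on 4-week replicate 2 and 0.40 below it on 4-week replicate 3, and 0.49 above and 0.40 below it on control replicates 2 and 3. In the OVA group these genes kept within 0.16 (Mmp2), 0.23 (Mmp9) and 0.15 (Mmp14) from the lowest to the highest array. Mmp13, a collagenase of bone and cartilage, and Ctsk, the osteoclast protease cathepsin K, were chosen for the plot of within-group variation after their values were seen. Both were highest on replicate 2 and lowest on replicate 3 in the 4-week group and among the arrays labelled control. Ctsk deviated by 0.55 and −0.50 on 4-week replicates 2 and 3. In OVA Ctsk kept this order (0.34 on replicate 2 and −0.39 on replicate 3), while Mmp13 ran the other way (−0.32 and 0.28).

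Marker lists of other cell types were read on the same arrays. The mean of 7 osteoclast markers was 6.17, 6.54 and 5.97 on 4-week replicates 1, 2 and 3, 6.17, 6.20 and 5.96 on the OVA replicates and 6.30, 6.39 and 6.12 on control replicates 1, 2 and 3. That of 10 fibroblast markers was 8.16, 8.31 and 7.80 in 4-week, 7.89, 8.10 and 7.73 in OVA and 8.01, 8.17 and 7.79 in the arrays labelled control. The mean of 6 bone and cartilage markers was 7.77, 6.98 and 6.54 in 4-week and 6.96, 6.88 and 6.97 in OVA. Among the arrays labelled control it was 6.51, 6.82 and 6.31. It was highest on replicate 1 in 4-week and on replicate 2 among the arrays labelled control, and lowest on replicate 3 in both. Ibsp, Sp7 and Dmp1 were highest on replicate 2 and lowest on replicate 3 in both groups. Ibsp, for example, had 9.26, 9.83 and 8.77 in 4-week. Acan (7.74, 5.87 and 5.06), Col10a1 (10.26, 6.29 and 6.80) and Col2a1 (6.83, 6.75 and 6.61) were highest on replicate 1 in 4-week. No osteoclast, fibroblast or bone and cartilage marker passed in any comparison (at most 1, 3 and 1 at an unadjusted p under 0.05). How far the share of bone or stroma in each sample set the metalloproteinase values was not tested.

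**Figure D3:**
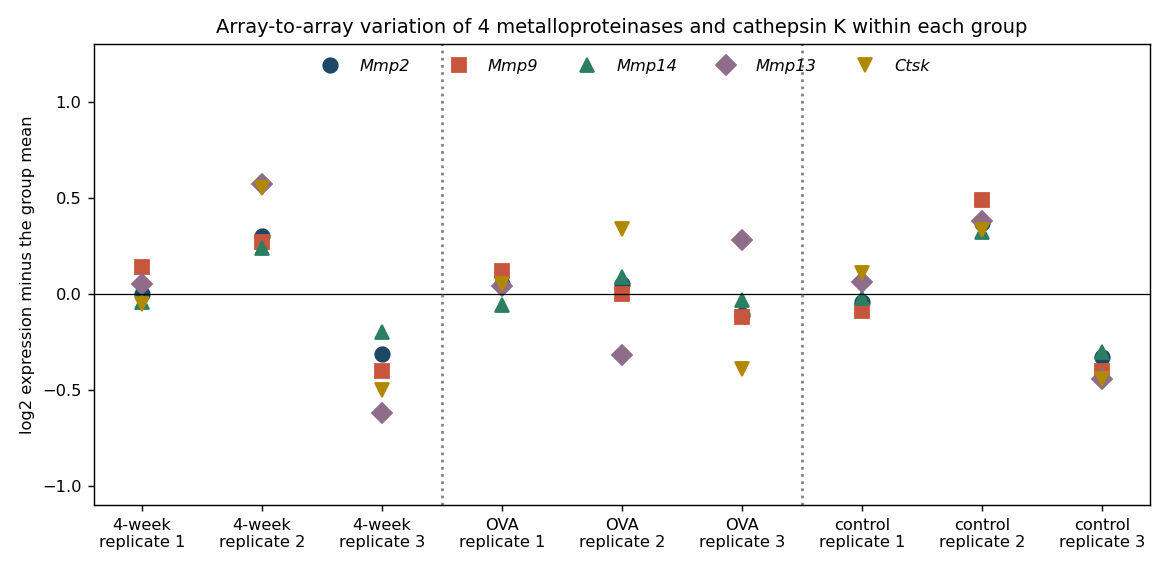
Log2 expression minus the mean of its own group for Mmp2, Mmp9, Mmp14, Mmp13 and Ctsk on each array, with 4-week left, OVA in the middle and the arrays labelled control right, 1 marker shape per gene. In the 4-week and control panels all 5 genes are above 0 on replicate 2 (0.24 to 0.57) and below 0 on replicate 3 (−0.62 to −0.20), while on the OVA arrays Mmp2, Mmp9 and Mmp14 keep within 0.12 of 0, Ctsk has 0.34 and −0.39 on replicates 2 and 3 and Mmp13 has −0.32 and 0.28.

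Ccn1, a matricellular protein whose gene is an early responder to growth factors and a target of YAP and TEAD, was high at 4 weeks and not at 2 hours. It had 8.10, 8.39 and 8.55 in 4-week arrays, 6.99, 7.69 and 6.97 in OVA arrays and 7.36, 7.50 and 7.35 in the arrays labelled control. The 4-week arrays lay above all 6 others, whereas OVA spanned a range of 0.72 that enclosed that of the arrays labelled control. Ccn1 was 2.18-fold higher in 4-week than in OVA (log2 change 1.13, SE 0.19, adjusted p = 0.0138) and 1.92-fold higher in 4-week than in the arrays labelled control (0.94, SE 0.19, adjusted p = 0.0148). Between OVA and the arrays labelled control the change was −0.19 (95% interval −0.62 to 0.25, adjusted p = 0.672). Without 4-week replicate 2 neither rise passed (adjusted p = 0.0544 and 0.0522), and without OVA replicate 3 the rise over OVA did not pass (0.0561). Over the 9 fits the rise over OVA lay between 1.00 and 1.36.

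Ccn2, the connective tissue growth factor, was higher in both allergen groups than in the arrays labelled control. Its values were 9.48, 9.40 and 9.43 in 4-week arrays, 9.31, 9.43 and 9.40 in OVA arrays and 8.64, 8.96 and 8.55 in the arrays labelled control. The 6 arrays of allergen-exposed mice lay between 9.31 and 9.48, above all those labelled control. The rise was 1.65-fold in 4-week (log2 change 0.72, SE 0.10, adjusted p = 0.00438), which passed in all 9 fits without an array. In OVA it was 1.58-fold (0.66, SE 0.10, adjusted p = 0.0219), which did not pass without control replicate 1 or 3 or without any 1 of the OVA arrays (adjusted p from 0.0585 to 0.0739). Between 4-week and OVA Ccn2 changed by 0.06 (95% interval −0.17 to 0.29), so that the interval leaves room for at most a 1.22-fold rise. The pair thus had different orders, with Ccn1 highest in 4-week and Ccn2 lowest in the arrays labelled control.

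Markers of vessels and smooth muscle were read beside these values. In OVA minus control none of 6 endothelial and none of 6 smooth muscle markers passed (3 and 1 at an unadjusted p under 0.05). In 4-week minus control 2 and 1 did, where 14.4% of all probe sets were called. The mean over 6 endothelial markers was 6.63 to 6.86 in 4-week, 6.57 to 6.61 in OVA and 6.31 to 6.52 in the arrays labelled control, and Cdh5 (log2 change 0.46, adjusted p = 0.00789) and Pecam1 (0.34, adjusted p = 0.0306), the adhesion proteins of endothelial junctions, rose in 4-week against the arrays labelled control, and leaving out an array kept these calls in 9 and 5 of 9 fits. The 6 smooth muscle markers averaged 7.11 to 7.27 in 4-week, 6.99 to 7.07 in OVA and 7.0 to 7.10 in the arrays labelled control. Myh11, smooth muscle myosin, rose in 4-week against OVA (0.37, adjusted p = 0.0474) and against the arrays labelled control (0.43, adjusted p = 0.018). These calls held in 1 and 7 of those fits. The other 5 passed in neither comparison. Acta2, Tagln and Cnn1 had changes above 0 in both, Actg2 had −0.11 and −0.065, and Des had 0.13 and −0.093. In 4-week minus OVA 6.33% of all probe sets were called. The part of vessels and smooth muscle in the Ccn1 and Ccn2 values was not tested. Of 20 further YAP and TEAD targets known from human cells, none passed in OVA minus control (5 at an unadjusted p under 0.05). In 4-week minus OVA 1 passed, Ankrd1, which fell by 0.34 (adjusted p = 0.034), where 6.33% of all probe sets were called. The mean signal of Ankrd1 exceeded that of 18.8% of the tested probe sets, and its distance from background is unknown. In 4-week minus control Igfbp3 (0.93, adjusted p = 0.0368), Myof (0.67, adjusted p = 0.0207) and Dock5 (0.29, adjusted p = 0.0182) rose and Ankrd1 fell (−0.44, adjusted p = 0.00764), and 16 did not pass. These were 4 of 20, where 14.4% of all probe sets were called. Leaving out an array kept the calls of Igfbp3, Myof and Dock5 in 3, 7 and 7 of 9 fits, and those of Ankrd1 in 3 (4-week minus OVA) and 9 (4-week minus control). Changes in 4-week minus OVA lay between −0.44 and 0.87 with a median of 0.016, beside −0.024 over all probe sets. The 4-week arrays lay above OVA without overlap for 4 of the 20 and below for 4, beside 28.1% of all probe sets without overlap. Among those above were F3, tissue factor (0.87, adjusted p = 0.152), and Nt5e, an ectonucleotidase (0.46, adjusted p = 0.119). Among those below were Tgfb2 (−0.44, adjusted p = 0.0931) and Fjx1 (−0.36, adjusted p = 0.0513).

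Over the other metalloproteinases, inhibitors, CCN genes, ADAM and ADAMTS proteases and the plasminogen system, 57 of 61 listed genes were measured. Of these, 1 was higher and 2 were lower in OVA minus control, 0 were higher and 1 was lower in 4-week minus OVA, and 1 was higher and 3 were lower in 4-week minus control. The passing share was 5.26%, 1.75% and 7.02%, beside 1.3%, 6.33% and 14.4% of all probe sets. None of the 17 other metalloproteinases, the 17 ADAMTS proteases or the 4 other CCN genes passed in any comparison. At an unadjusted p under 0.05 there were 1, 3 and 0 of the metalloproteinases, 2, 3 and 5 of the ADAMTS genes and 0, 2 and 1 of the CCN genes in the 3 comparisons. The shares of all probe sets given above hold for the adjusted threshold and cannot be set beside these unadjusted counts. The widest change among the other metalloproteinases was that of Mmp13, with −0.65 in 4-week minus OVA (adjusted p = 0.239). Timp4, the remaining inhibitor of its family, had 0.47 in 4-week minus OVA and 0.49 in 4-week minus control (adjusted p = 0.18 and 0.115).

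The genes that passed were Pzp, Plg, Plat, Plaur, Adam9 and Adam19. Pzp, a broad protease trap of plasma, fell against the arrays labelled control, with log2 changes of −0.62 in OVA (adjusted p = 0.016) and −0.68 in 4-week (adjusted p = 0.00311). Plg, plasminogen, which is made mainly by liver, likewise had −0.72 in OVA (adjusted p = 0.0228) and −0.77 in 4-week (adjusted p = 0.00501). Both falls were taken against arrays with another sex pattern. The mean signal exceeded that of 26.8% (Pzp) and 21.9% (Plg) of the tested probe sets, so their distance from background is also unknown. Plat, the tissue plasminogen activator, rose in 4-week against the arrays labelled control (0.64, adjusted p = 0.00776), with 8.05, 8.02 and 8.04 in 4-week arrays and 7.55, 7.32 and 7.33 in the arrays labelled control. Plaur, the urokinase receptor, fell in 4-week against OVA (−0.44, adjusted p = 0.0227), with 5.30 to 5.34 in 4-week and 5.63 to 5.91 in OVA arrays.

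Adam9 rose in OVA (0.45, adjusted p = 0.0447) and Adam19 fell in 4-week (−0.37, adjusted p = 0.0318), each against the arrays labelled control, and leaving out an array kept these calls in 1 and 2 of 9 fits. The falls of Pzp and Plg in 4-week and the rise of Plat held in all 9, those of Pzp and Plg in OVA in 7 and 6, and that of Plaur in 4. Of 13 matrix proteins that these enzymes cut, only Lamb1, a laminin chain of basement membrane, passed. It rose by 0.43 in 4-week against OVA (adjusted p = 0.00901) and by 0.29 against the arrays labelled control (adjusted p = 0.0232). Each time this was 1 of 13, where 6.33% and 14.4% of all probe sets were called. These calls were kept in 9 and 5 of the 9 fits that left out 1 array. Tnc, tenascin C, had 8.67, 9.13 and 7.97 in 4-week arrays, 7.59, 8.03 and 7.08 in OVA arrays and 8.0, 8.44 and 7.30 in the arrays labelled control. Replicate 2 was highest and replicate 3 lowest in each group, the 4-week and OVA ranges overlapped, and the change of 1.03 in 4-week minus OVA did not pass (adjusted p = 0.132).

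**Figure D4:**
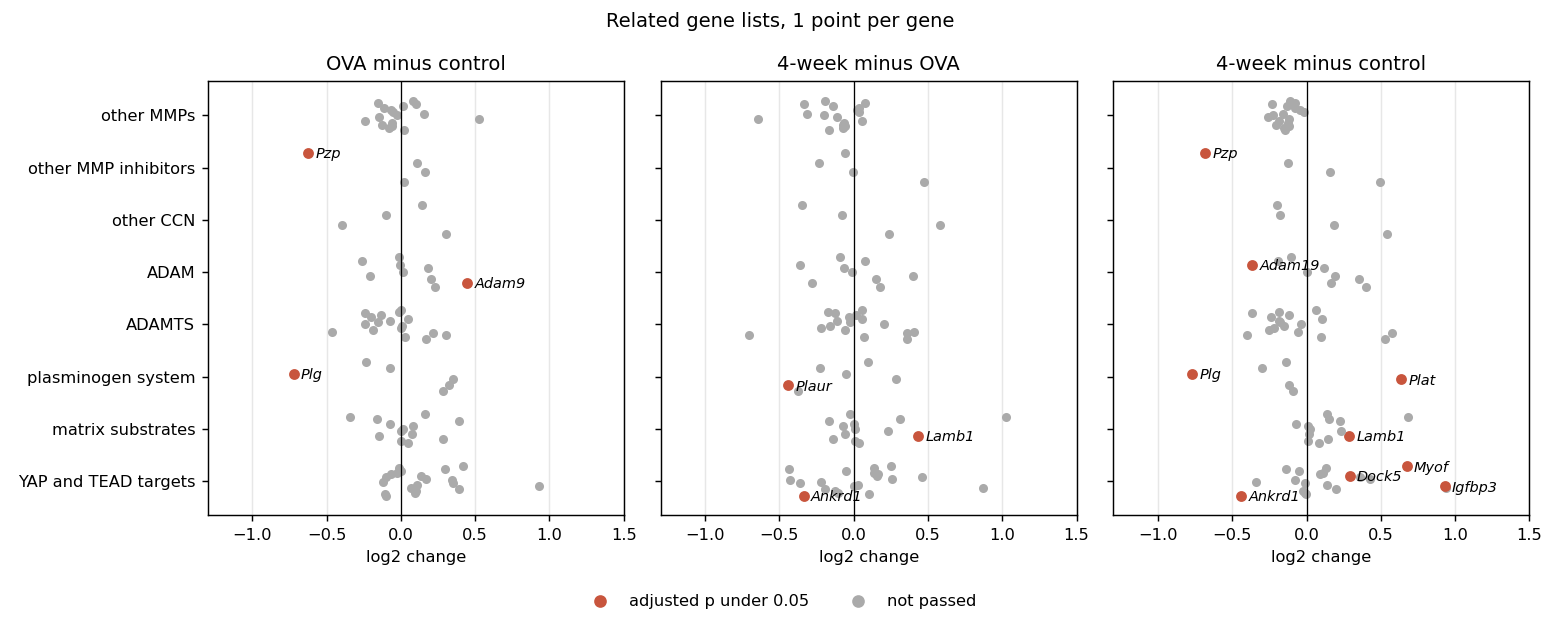
Log2 change of each measured gene of 8 related lists, 1 point per gene, with OVA minus control left, 4-week minus OVA in the middle and 4-week minus control right. Red points passed at an adjusted p under 0.05 and are named. Most points are grey and near 0, and the named ones include Pzp and Plg below 0 in both comparisons with the arrays labelled control and Plat and Lamb1 above 0 on the right.

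For each of the 4 genes that passed in some comparison, the 3 genes with the most similar course were taken from 16824 others, by the root mean square difference over the 9 arrays after subtracting each gene's mean. Predicted genes, some gene families such as odorant and vomeronasal receptors, small RNAs and pseudogenes had been left out, so nearest holds within this set. Nearest to Timp1 were Sting1, a sensor adaptor of innate immunity (difference 0.175, where Timp1 itself varied by 0.619 about its mean), Ccl3, a macrophage chemokine (0.186), and Mab21l3 (0.216). Sting1 averaged 7.12 in 4-week, 8.26 in OVA and 7.19 in the arrays labelled control. Nearest to Timp3, which varied by 0.326, were Btg1, an antiproliferative protein (0.105), Pnrc1 (0.134) and Wsb1 (0.137). Ccn1 varied by 0.542 and lay nearest to Klk1b9, a kallikrein (0.206), Sp140 (0.214) and Selenbp1 (0.219). Mean signals of Klk1b9, Sp140 and Mab21l3 exceeded those of 26.8%, 30.3% and 30.3% of the tested probe sets, and their distance from background is unknown. Ccn2 varied by 0.344 and lay nearest to Gramd3 (0.123), Dpysl3, a protein of growing axons (0.123), and the transcription factor Klf6 (0.128). No gene of the 10 was among the 3 nearest of another.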

How the data were processed

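Nasal mucosa RNA was measured on Affymetrix Mouse Gene 1.0 ST arrays, 1 per sample, per the labels. The authors deposited 1 log2 value per probe set after RMA, which corrects background, normalizes by quantiles and summarizes probes, per the submitters' processing notes. Its version is not given in the sources, and the scale was taken from the values (1.63 to 13.83). Of 35556 rows, 23410 had a gene symbol in the platform annotation and were tested, 21789 of them with a single gene. Symbols were updated by Entrez number from RefSeq GRCm38.p6 (21695 matched), and of several probe sets the one with the highest mean stood for a gene.

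The test was limma 3.58.1 in R 4.3.3 over all 9 arrays (1 mean per group, eBayes defaults, 6 residual and 2.98 prior degrees of freedom), two-sided, and p-values of a contrast were adjusted by Benjamini-Hochberg. On simulated data of 23410 probe sets it recovered 98% of 2-fold and 76% of 1.5-fold changes for OVA minus control. It recovered 94% and 70% for 4-week minus OVA and 98% and 82% for 4-week minus control. The changed probe sets were drawn at random, so these shares do not describe single genes of wider spread, such as Mmp9 (SE 0.23). The members and lists were chosen with earlier results of these data known, so their counts beside the shares of all probe sets are descriptive. Named genes were the 10 members, at most 4 called genes per list and contrast with the smallest p, and the 3 nearest genes of each called member. Other genes with values were chosen after these were seen. Alternatives changed the normalization, the probe sets tested, the arrays in the fit, the variance model and the replicate block. Counts at an unadjusted p under 0.05 stand without the share of all probe sets under it, so an excess cannot be read from them. The number of arrays limits the precision.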

Additional observations from a re-analysis of the deposited data

How the results depend on the processing

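With only the arrays of the compared groups in the fit, the calls among the 10 genes were 1 in OVA minus control, 1 in 4-week minus OVA and 2 in 4-week minus control, in place of 3, 2 and 3, and those among all probe sets were 109, 737 and 2054, in place of 305, 1481 and 3364. With every row of the table tested, 143 probe sets and 0 of the 10 genes passed in OVA minus control, where Timp1, Timp3 and Ccn2 had adjusted p of 0.051, 0.054 and 0.05. With 1 probe set per gene, 946 passed in 4-week minus OVA. Leaving out each array in turn gave 0 to 3, 1 to 2 and 1 to 4 of the 10 genes and 63 to 305, 446 to 1361 and 1560 to 2966 probe sets. The lowest counts of probe sets came without control replicate 2, OVA replicate 3 and 4-week replicate 2.

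Normalizing again by quantiles moved the share of higher calls in OVA minus control to 49.5%, in place of 60%, and took Timp3 out of the calls in 4-week minus control (0.39, adjusted p = 0.071). It also turned the uncalled change of Mmp12 in 4-week minus OVA to 0.029, in place of −0.054. Uncalled changes that crossed 0 when an array was left out were those of Mmp2 (−0.23 to 0.12), Mmp3 (−0.11 to 0.13), Mmp9 (−0.26 to 0.19) and Mmp14 (−0.092 to 0.22) in OVA minus control, Mmp12 (−0.14 to 0.066) and Mmp14 (−0.079 to 0.14) in 4-week minus OVA, and Timp1 (−0.16 to 0.15) and Mmp14 (−0.052 to 0.26) in 4-week minus control. No called change turned its sign in any of these. With the replicate number as a block, 2, 2 and 3 of the 10 genes and 213, 1397 and 3271 probe sets passed, and Timp1 in OVA minus control did not (adjusted p = 0.0516). The numbers were not taken to pair the arrays, since the correlation of deviations was over 0.1 in 5 of 9 same-numbered pairs and not in 4 (−0.0438 to 0.332), although it was 0.147 to 0.332 in the 3 pairs of replicate 3 and 7 of 9 arrays correlated best with one of their own number. Of 234 values for the 10 genes under the 8 settings that left out no single array, 224 kept direction and side of the threshold. The cause of these differences was not tested. No member had a second single-gene probe set, and Mmp3 and Mmp12 were below the filter on dim probe sets.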
